A study of Mus musculus with 30 samples.

Results

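Glioma monocytes were compared with CCR2high glioma macrophages, both sorted from tumor-bearing mouse brain as cells without detectable glioma-derived GFP (GFPneg). The samples were chosen by population, 3 GFPneg monocyte samples (mice 22, 24 and 26) and 4 GFPneg CCR2high macrophage samples (mice 22, 23, 24 and 26). These are 7 of the 30 samples of the series. The series held 28 replicates after 1 library with too few detected genes was left out and passing repeat libraries were summed. All mice were C57BL6.CCR2RFP/WT animals of 12 to 18 weeks, in which a red fluorescent reporter replaces 1 Ccr2 allele, so every population carried a single functional copy of Ccr2. Each had received an intracranial graft of GL261, a mouse glioma line, made to express a membrane-anchored palmitoylated GFP. After dissociation of the brain, infiltrating cells were gated as CD11b high and CD45 high to set them apart from microglia, monocytes were taken as F4/80-positive cells with high Ly6C, and macrophages were divided by CCR2 into high and low. GFPneg refers to the sort and not to genotype, since cells of the same brains that had taken up GFP (GFPpos) were sorted separately.

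Classical monocytes leave the blood with high Ly6C and CCR2, the receptor for CCL2, and in inflamed or tumor-bearing tissue they lose Ly6C and mature into macrophages that gain antigen presentation, lysosomal and scavenging functions. Interferons act on myeloid cells through receptors that activate STAT and IRF transcription factors, and the genes these induce encode antiviral proteins, guanylate-binding proteins and further IRFs.

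The 7 libraries held between 1683203 and 4688949 counted reads and between 12947 and 15149 detected genes, and spike-in RNA took 0.319% to 0.742% of counts. Xist was counted in both populations of mouse 26 and in no sample of the other mice. The pan-leukocyte gene Ptprc (CD45) was counted at 944, 1096 and 968 CPM (normalized read counts scaled to a common library size) in the monocytes of mice 22, 24 and 26, and at 842, 640.5, 692 and 737 CPM in the macrophages of mice 22, 23, 24 and 26; values below follow this order. Csf1r, the receptor for the macrophage growth factor CSF1, stood at 2617, 3010 and 3452 CPM in monocytes and at 3284, 2593, 2436 and 3131 CPM in macrophages. Its fitted log2 fold change was 0.00 with a standard error (SE) of 0.207. Both genes are shared by monocytes and macrophages, and the genes of the gates that separate the populations are given with the first results. RNA was measured in bulk, and fewer cells of a type and less RNA per cell cannot be told apart.

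Of 11566 genes tested, 96 (0.83%) differed at an adjusted p under 0.05 by edgeR's quasi-likelihood test with mouse as a block, and such genes are referred to as called. Of these, 87 (0.752% of genes tested) were higher in monocytes and 9 (0.0778%) were lower. The median change of the 87 genes was 1.62 on the log2 scale, 79 exceeded 2-fold and 28 exceeded 4-fold, and the 9 lower genes had a median of -2.23. All 87 were higher in monocytes in each of the 3 mice that gave both populations, and all 9 were lower in each. In 75 of the 87 and 8 of the 9 every replicate of 1 population lay above every replicate of the other, where 6.14% of all genes tested were separated in this way toward monocytes and 5.59% toward macrophages. The count of called genes depended on the fit: it was 21 without the mouse block, 205 by DESeq2, 333 when only brain populations were fitted and 0 when libraries were scaled to spike-in RNA. It fell to between 35 and 64 when 1 of the 7 samples was left out and to 16 when mouse 24 was left out of all populations.

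**Figure D1:**
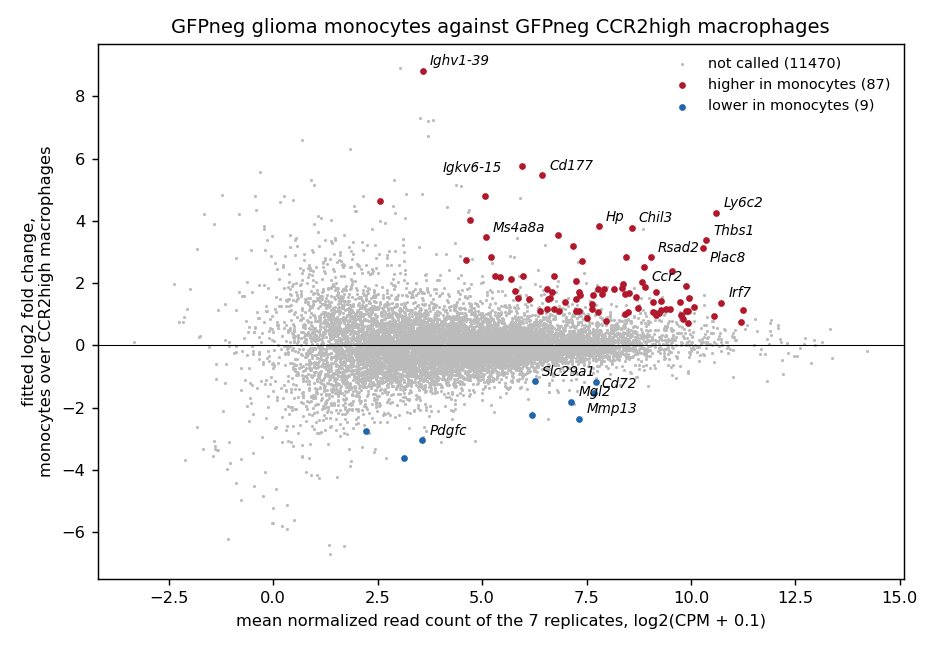
Fitted log2 fold change of monocytes over CCR2high macrophages (GFPneg) against the mean normalized read count of the 7 replicates, 1 point per tested gene. The 87 called genes higher in monocytes (red) span all but the lowest levels, and the 9 lower ones (blue) lie below a change of -1.

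The genes of the gate were examined first. Ly6c2, which encodes the Ly6C antigen used to sort monocytes (chromosome 15, 75108158 to 75111970), was counted at 3496, 3763 and 2857 CPM in monocytes and at 222, 205, 214 and 147 CPM in macrophages. The groups were far apart, with a log2 fold change of 4.26 (SE 0.431, adjusted p = 6.12e-06). Ccr2 was counted at 802, 588 and 953 CPM in monocytes and at 213, 313, 143 and 304 CPM in CCR2high macrophages, a log2 fold change of 1.88 (SE 0.321, adjusted p = 0.00292). Thus monocytes exceeded even those macrophages that had been selected for high CCR2. Ly6C was selected for in one population and CCR2 in the other, so neither difference is independent of the sort. Adgre1, which encodes F4/80, was counted at 299, 318 and 358 CPM in monocytes and at 436, 617, 338 and 674 CPM in macrophages and was not called (adjusted p = 0.474).

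Genes typical of classical monocytes had the largest share of calls among the lists. Of 34 tested members of a list of such genes, 15 were called and all 15 were higher in monocytes, beside 0.752% of all genes, and the remaining 19 also had positive fitted changes. The median over the list was 1.59, against -0.03 over all genes tested. The list was drawn up with earlier results of these data known, so these shares are a description and not independent evidence. Within the mice, 32, 34 and 33 of the 34 members were higher in the monocytes of mice 22, 24 and 26. Between 10 and 14 members were called when 1 of the 7 samples was left out, and 4 without the mouse block.

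Plac8, a small cysteine-rich protein abundant in Ly6Chigh monocytes, had the smallest p of all genes (chromosome 5, 100553725 to 100572245). It was counted at 2484, 3460 and 1523 CPM in monocytes and at 310, 394, 339 and 199.7 CPM in macrophages. The lowest monocyte sample was well above the highest macrophage sample, and the log2 fold change was 3.14 (SE 0.246, adjusted p = 8.46e-08).

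Several further members encode secreted or granule proteins. Hp, haptoglobin, which binds free hemoglobin, was counted at 467, 378 and 548 CPM in monocytes and at 41.0, 29.7, 6.86 and 77.1 CPM in macrophages, 14.2-fold higher by the fit (adjusted p = 0.000119). Chil3, a chitinase-like lectin, was counted at 346, 457 and 1560 CPM in monocytes and at 27.1, 153, 66.6 and 69.3 CPM in macrophages, 13.7-fold higher (adjusted p = 0.000583). Neither gene overlapped between the groups, although the Chil3 level of mouse 26 was several times that of the other monocyte samples. Cd177, a glycoprotein also displayed by neutrophils, was counted at 125, 340.5 and 111 CPM in monocytes and at 0.631, 18.9, 4.90 and 4.57 CPM in macrophages, a log2 fold change of 5.47 (SE 0.833, adjusted p = 0.000733). Clec4e (Mincle), a C-type lectin receptor for glycolipids, was counted at 292, 208 and 449.7 CPM in monocytes and at 49.8, 45.3, 22.04 and 96.7 CPM in macrophages, 6.51-fold higher (adjusted p = 0.000476). These 4 genes remained called whichever of the 7 samples was left out.

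Of the other genes with the largest changes, Slpi, an inhibitor of neutrophil elastase, was counted at 205, 185 and 325 CPM in monocytes and at 15.8, 18.9, 17.1 and 22.4 CPM in macrophages (log2 fold change 3.53, adjusted p = 0.0174). The macrophage samples lay close together, yet the call held only when the macrophages of mouse 23 were left out (adjusted p up to 0.0894 without another sample). Klk1, a tissue kallikrein, was counted at 52.7, 45.0 and 65.8 CPM in monocytes and at 0, 9.43, 4.41 and 3.66 CPM in macrophages (log2 fold change 4.02, adjusted p = 0.0392) and was not called in any fit without 1 sample (adjusted p from 0.0738 to 0.274). Ms4a8a, a membrane protein of the MS4A family, was counted at 45.7, 42.8 and 118 CPM in monocytes and at 5.05, 8.02, 1.47 and 16.5 CPM in macrophages (log2 fold change 3.47, adjusted p = 0.00129) and stayed called in all of them.

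These genes do not mark monocytes alone, and neutrophils express several of them. Of 12 neutrophil marker genes 0 were called (3 at an unadjusted p under 0.05, 1 by DESeq2), but 11 of the 12 had positive fitted changes, with a median of 1.8. Their summed level was higher in monocytes in each mouse, at 553 against 407 CPM in mouse 22, 2329 against 686 CPM in mouse 24 and 1447 against 778 CPM in mouse 26, and the macrophages of mouse 23 held 284 CPM. Neutrophil transcripts thus moved with the group beside the classical monocyte genes. The granule gene Ngp was at 0 in both samples of mouse 22 and at 391 against 82.8 CPM in mouse 24, and S100a8 was at 22.1 against 5.05 CPM and at 493 against 96.0 CPM. Ngp and S100a8 are examples from the 12 markers, and their levels in mouse 26 are not given here. The part of neutrophil transcripts in the other differences was not tested.

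Calcium-binding S100 proteins were also represented. S100a6 was counted at 449, 717 and 436 CPM in monocytes and at 154, 225, 189.5 and 212 CPM in macrophages (log2 fold change 1.66, adjusted p = 0.000873). S100a4, a regulator of cell motility, was counted at 67.7, 181 and 80.0 CPM in monocytes and at 15.1, 37.1, 20.1 and 40.5 CPM in macrophages (log2 fold change 2.23, adjusted p = 0.00671). In both genes the groups were separate, but S100a4 was not called without the monocytes of mouse 24 (adjusted p = 0.110). The other called members were Ms4a4c, Ifitm3, Ifitm6, Mgst1, Clec4d, F13a1 and Thbs1. F13a1, the A chain of clotting factor XIII, overlapped between the groups, at 401, 514 and 1625 CPM in monocytes against 168, 119, 15.7 and 429 CPM in macrophages, with mouse 26 highest in both. F13a1 was called in 2 of the 7 fits without 1 sample, those without the monocytes of mouse 26 or the macrophages of mouse 22 (adjusted p up to 0.430 in the others).

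**Figure D2:**
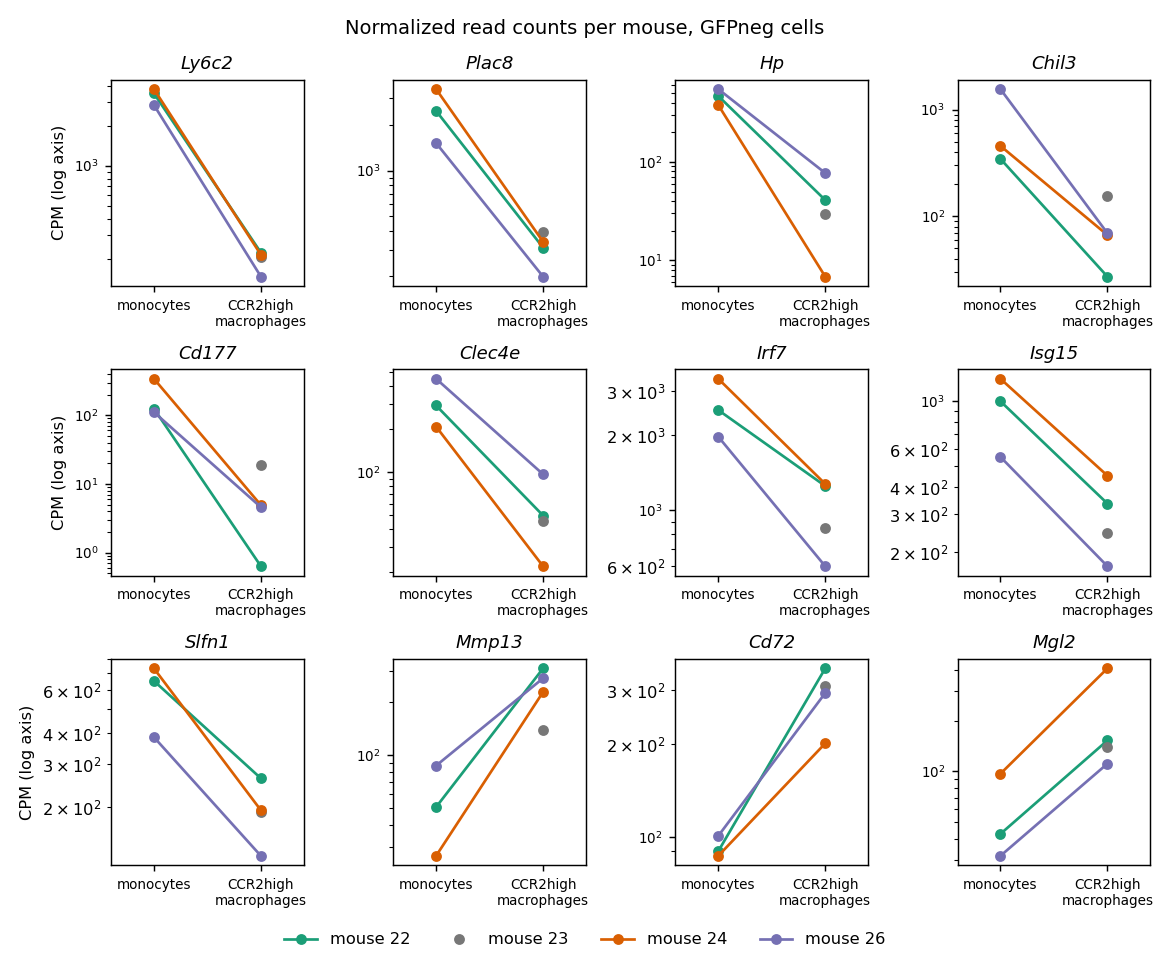
Normalized read counts (CPM, log axis) of 12 genes in GFPneg monocytes and CCR2high macrophages, with 1 color per mouse and a line joining the populations of a mouse. Mouse 23 gave macrophages only. In every panel all 3 lines run the same way, down for the 9 genes from Ly6c2 to Slfn1 and up for Mmp13, Cd72 and Mgl2.

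Interferon-stimulated genes were the second group with many calls. Their list, too, was drawn up with earlier results of these data known, so its shares are a description. Of 49 tested members, 13 were called and all 13 were higher in monocytes, beside 0.752% of all genes called higher. Of the 49, 48 had positive fitted changes with a median of 1.17, against 5505 of all 11566 genes and a median of -0.03. In mice 22, 24 and 26, respectively, 49, 47 and 46 of the 49 were higher in monocytes. Between 7 and 11 were called when 1 of the 7 samples was left out. The number called rose to 35 when the fit held only brain populations and was 23 by DESeq2 and 4 without the mouse block.

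Irf7, a transcription factor that amplifies type I interferon production (chromosome 7, 141262706 to 141266481), was counted at 2507, 3342 and 1963 CPM in monocytes and at 1249, 846, 1272 and 598 CPM in macrophages. The groups did not overlap, and the log2 fold change was 1.38 (SE 0.209, adjusted p = 0.000733). Isg15, a ubiquitin-like protein that is conjugated to targets after interferon exposure, was counted at 995, 1265 and 549.7 CPM in monocytes and at 334, 243, 450.1 and 171 CPM in macrophages, a log2 fold change of 1.70 (SE 0.292, adjusted p = 0.00292). Here the lowest monocyte sample, from mouse 26, stood only a little above the highest macrophage sample, from mouse 24, but within every mouse the monocytes were higher.

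Slfn1, a member of the Schlafen family that restrains lymphocyte growth, was counted at 653, 734 and 385 CPM in monocytes and at 261, 190, 193 and 126 CPM in macrophages (log2 fold change 1.68, adjusted p = 0.000583). Ifi47, an interferon-inducible GTPase, was counted at 1235, 1062 and 593 CPM in monocytes and at 562, 502, 404 and 342 CPM in macrophages (log2 fold change 1.17, adjusted p = 0.000955). Mouse 26 had the lowest level of all 4 genes in both populations. The other called members were Trim30a, Samd9l, Rsad2, Ifit3, Ifit1, Zbp1, Gbp2, Parp14 and Usp18, among which Rsad2 (viperin, an antiviral enzyme) had the largest change, from 85.1, 101, 123 and 193 CPM in macrophages to 691, 1236 and 1234 CPM in monocytes, 7.18-fold by the fit (adjusted p = 0.00708). Rsad2 was not called without the monocytes of mouse 24 or the macrophages of mouse 22 or 24 (adjusted p up to 0.0630). Irf7, Isg15, Slfn1, Ifi47, Trim30a and Samd9l stayed called in each fit without 1 sample, and Usp18 in none.

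Interferon-stimulated response elements are built around paired GAAA cores, and the promoters of the called interferon-stimulated genes were searched for GAAANNGAAA on either strand in the 250 bases before the transcription start (RefSeq, build GRCm38.p6). Of the 13 called genes 10 had an entry, and 6 of the 10 held a match, where 3.46% of 27025 genes with a promoter did. Among the interferon-stimulated genes that were not called, 11 of 28 with an entry (39.3%) also held one, and the difference from the called members was not tested. None of the 12 called classical monocyte genes with an entry held a match, and 0 in a set of this size is near the 3.46% of all genes. Stretches around the matches are shown for 5 of the 6 genes with a match, so a match was the condition for showing them. The 5 were chosen after their values were seen, and Trim30a, which also held a match, is not shown. The sequence played no part in the calls. Capitals mark the matched bases, overlapping matches run together, and each line reads in the direction of transcription.
Isg15, chr4:156200850-156200921, minus strand: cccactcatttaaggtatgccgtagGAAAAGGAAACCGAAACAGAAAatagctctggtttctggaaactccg
Ifit1, chr19:34640760-34640838, plus strand: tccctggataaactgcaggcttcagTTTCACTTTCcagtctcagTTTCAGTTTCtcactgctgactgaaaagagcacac
Ifit3, chr19:34583348-34583441, plus strand: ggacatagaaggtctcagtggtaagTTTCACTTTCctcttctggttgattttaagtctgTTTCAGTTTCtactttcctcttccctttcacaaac
Rsad2, chr12:26456538-26456597, minus strand: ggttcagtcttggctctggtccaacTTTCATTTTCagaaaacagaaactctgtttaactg
Gbp2, chr3:142620579-142620638, plus strand: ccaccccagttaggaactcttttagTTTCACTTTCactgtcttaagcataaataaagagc
The match in Isg15 is a run of 3 overlapping copies whose first base lies 78 bases before the start, Ifit1 and Ifit3 hold 2 copies each, and Rsad2 and Gbp2 hold 1. Irf7, Slfn1, Ifi47 and Samd9l had entries without a match, and no factor's binding was measured.

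Some chemokine genes were called. Of 12 tested CC chemokines 2 were called (16.7%), both higher in monocytes, beside 0.752% of all genes called higher. The share called was 7.69% of 13 CXC chemokines and 6.25% of 16 chemokine receptors. For these lists and those below, the share called over all genes in either direction was 0.83%. Ccl2, the ligand of CCR2 that recruits monocytes (chromosome 11, 82035571 to 82037453), was counted at 574, 480.2 and 952 CPM in monocytes and at 220.1, 205, 145 and 302 CPM in macrophages, 2.96-fold higher without overlap (adjusted p = 0.0205). Ccl2 was not called in any fit without 1 of the 7 samples (adjusted p from 0.0591 to 0.143). Ccl9, a myeloid chemoattractant, was counted at 397, 748 and 1154 CPM in monocytes and at 58.7, 169, 188 and 469 CPM in macrophages. Its groups overlapped, yet within mice 22, 24 and 26 the monocytes were higher, and the log2 fold change was 2.05 (SE 0.295, adjusted p = 0.000476). Cxcl11, a ligand of CXCR3 on activated T cells, was the single called member of 13 CXC chemokines (log2 fold change 1.74, adjusted p = 0.0496, and 0.0746 to 0.453 without 1 sample), and Ccr2 was the single called member of 16 chemokine receptors.

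Among cytokines and secreted mediators, 0 of 28 genes were called (15 at an unadjusted p under 0.05, 2 by DESeq2). Over all genes 0.83% were called and 6.9% were at an unadjusted p under 0.05. Il1b, the inflammasome-processed cytokine, was counted at 3350, 2968 and 6021 CPM in monocytes and at 2594, 1055, 1417 and 3369 CPM in macrophages (log2 fold change 0.84, SE 0.288, adjusted p = 0.313). Il1rn, which encodes its receptor antagonist, was counted at 1754, 3098 and 1424 CPM in monocytes and at 638, 589.96, 589 and 799.6 CPM in macrophages (log2 fold change 1.60, SE 0.481, adjusted p = 0.177). The Il1rn replicates were fully separated but the test did not call the gene. With only brain populations fitted, 6 members of the list were called higher and 2 lower in monocytes.

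In the group of extracellular matrix and protease genes, 2 of 27 were called higher and 1 lower. Thbs1, thrombospondin 1, an adhesive glycoprotein that activates TGF-beta, was counted at 586, 289.6 and 7208 CPM in monocytes and at 55.5, 48.9, 23.997 and 955 CPM in macrophages. Mouse 26 held by far the most in both populations, so the groups overlapped, but each mouse showed higher counts in monocytes (log2 fold change 3.39, SE 0.517, adjusted p = 0.000733). F10, coagulation factor X, was counted at 473, 263 and 495 CPM in monocytes and at 105, 106, 75.9 and 181 CPM in macrophages (log2 fold change 1.81, adjusted p = 0.00134).

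Mmp13, collagenase 3, which cleaves fibrillar collagen (chromosome 9, 7272514 to 7283331), was the lower member. It was counted at 50.7, 26.8 and 87.1 CPM in monocytes and at 311, 139, 228 and 273 CPM in macrophages. The groups were separate, and macrophages held 5.11-fold more by the fit (log2 fold change -2.35, SE 0.371, adjusted p = 0.00146). It was the only 1 of the 9 lower genes that remained called whichever single sample was left out, whereas 29 of the 87 higher genes did.

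Of 39 tested genes of macrophage maturation 1 was called, Cd72, which was lower in monocytes (2.56%, beside 0.0778% of all genes called lower). Negative fitted changes were found in 27 of the 39 (median -0.43, against -0.03 over all genes). Cd72, an inhibitory C-type lectin of B cells and macrophages, was counted at 89.8, 86.7 and 101 CPM in monocytes and at 351, 309, 201 and 292 CPM in macrophages (log2 fold change -1.53, SE 0.338, adjusted p = 0.0258). Its call held only without the macrophages of mouse 23 (adjusted p up to 0.214, without the monocytes of mouse 22). The number of called members of this list was 10 lower and 1 higher when only brain populations were fitted.

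The other lower genes that did not overlap and averaged 10 CPM or more were Mgl2, Pdgfc, Ntpcr and Slc29a1. Mgl2, a galactose-binding lectin of dendritic cells and macrophages, was counted at 42.6, 96.9 and 31.6 CPM in monocytes and at 153, 140.2, 408 and 111 CPM in macrophages (log2 fold change -1.81, adjusted p = 0.0184). The dendritic cell markers, which include Mgl2, also summed lower in monocytes within mice 22, 24 and 26. Pdgfc, a platelet-derived growth factor, was counted at 3.01, 1.07 and 2.58 CPM in monocytes and at 11.4, 18.05, 21.1 and 24.9 CPM in macrophages (log2 fold change -3.04, adjusted p = 0.0426). Slc29a1, an equilibrative nucleoside transporter, was counted at 37.1, 50.9 and 49.7 CPM in monocytes and at 99.7, 108, 91.1 and 98.1 CPM in macrophages (log2 fold change -1.16, adjusted p = 0.0205). With 1 sample left out, Pdgfc was not called in any fit (adjusted p from 0.0598 to 0.359), Mgl2 was called only without the macrophages of mouse 23 or 26 (up to 0.158) and Slc29a1 only without those of mouse 24 or 26 (up to 0.133). Ntpcr was not called without the monocytes of mouse 22 or 26 or the macrophages of mouse 26 (up to 0.101).

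**Figure D3:**
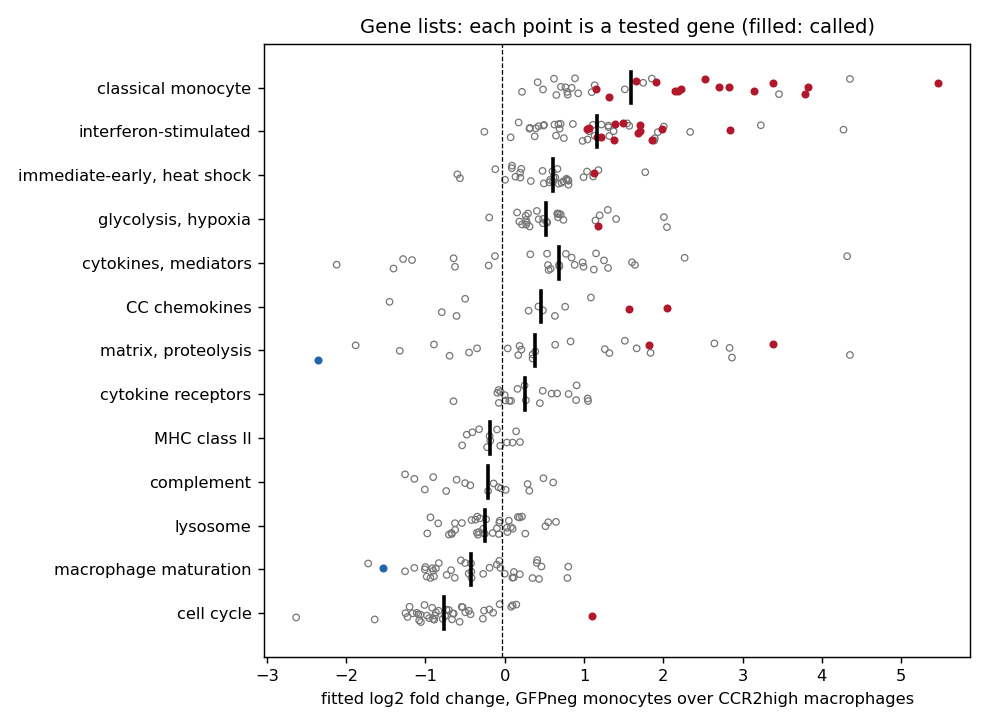
Fitted log2 fold change of GFPneg monocytes over CCR2high macrophages for the tested genes of 13 lists, with called genes filled (red higher, blue lower), the median of each list as a bar and the median of all genes (-0.03) as a dashed line. The classical monocyte and interferon-stimulated lists have medians of 1.59 and 1.17. Most lists hold at most 1 called gene, where 0.83% of all genes tested were called.

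No gene of antigen presentation by MHC class II was called, and 0 in a list of this size is near the 0.83% of all genes called. Of 13 MHC class II genes 0 were called (0 at an unadjusted p under 0.05, 0 by DESeq2), with a median change of -0.18. H2-Ab1, a class II beta chain, was counted at 9969, 10645 and 6263 CPM in monocytes and at 16354, 8640, 14481 and 7594 CPM in macrophages (log2 fold change -0.41, SE 0.262, adjusted p = 0.926). Of 13 costimulatory and checkpoint genes 0 were called (1 at an unadjusted p under 0.05, 0 by DESeq2), and Cd86, a ligand of CD28, had a log2 fold change of 0.12 (SE 0.262). Genes of MHC class I had no list of their own, and among the called genes H2-T24 was higher (log2 fold change 1.51, adjusted p = 0.0496) and H2-M2 lower (log2 fold change -2.23, adjusted p = 0.0174) in monocytes. With 1 sample left out, H2-T24 was called only without the macrophages of mouse 23 and H2-M2 only without those of mouse 22 or 23 (adjusted p up to 0.277 and 0.111).

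Complement and lysosomal genes held no call either, and 0 in lists of this size is near the 0.83% of all genes called. Over all genes 6.9% were at an unadjusted p under 0.05. Of 17 complement genes 0 were called (4 at an unadjusted p under 0.05, 0 by DESeq2). C1qc, a chain of the initiator of the classical complement pathway, was counted at 2444, 2082 and 1911 CPM in monocytes and at 5801, 4136, 4995 and 3855 CPM in macrophages (log2 fold change -1.14, SE 0.386, adjusted p = 0.302). Its replicates were separate, and 4 complement genes were called lower in monocytes when only brain populations were fitted. Among 37 lysosomal genes 0 were called (8 at an unadjusted p under 0.05, 1 by DESeq2), and Ctss, the cathepsin that trims the class II invariant chain, had a log2 fold change of 0.03 (SE 0.247). Of the 37, 25 had negative fitted changes, with a median of -0.25. With only brain populations fitted, 5 lysosomal genes were called lower and 1 higher in monocytes.

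Among 22 phagocytic receptors 1 was called. Fcgr1, which encodes the high-affinity IgG receptor CD64, was counted at 755, 806 and 827 CPM in monocytes and at 439.6, 369, 329 and 505 CPM in macrophages, 1.96-fold higher without overlap (adjusted p = 0.0205). CD64 is widely used as a macrophage marker, and here its transcript was higher in the Ly6Chigh cells. In lipid and eicosanoid metabolism 1 of 35 genes was called, Alox5ap, which presents arachidonate to 5-lipoxygenase (log2 fold change 0.80, adjusted p = 0.0496). Both calls held only in the fit without the macrophages of mouse 26 and were lost without any other sample, most of all without the monocytes of mouse 24 (adjusted p = 0.166 for Fcgr1 and 0.491 for Alox5ap).

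Of 34 transcription factors of monocyte and macrophage fate 1 was called. Nr4a1, an orphan nuclear receptor needed by Ly6Clow monocytes and also an immediate-early gene, was counted at 560.3, 939 and 1381 CPM in monocytes and at 372, 219, 282 and 607 CPM in macrophages. The groups overlapped, and the log2 fold change was 1.13 (SE 0.254, adjusted p = 0.0295). It stayed called only without the macrophages of mouse 22 (adjusted p up to 0.240, without the monocytes of mouse 24). It was also the only called member of 34 immediate-early and heat-shock genes, which tissue dissociation can induce. That list had 31 positive changes and a median of 0.61, and 6 of its members were called higher with only brain populations fitted, so its level moved with the group and its part in other differences was not tested.

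Cell cycle genes pointed mostly the other way. Of 42 tested members 38 had negative fitted changes with a median of -0.77, but the single call was Cdkn1a, the inhibitor p21, which was higher in monocytes at 1074, 1687 and 1352 CPM against 632, 412, 710.1 and 759.6 CPM (adjusted p = 0.0496). Mki67, the proliferation antigen, was counted at 12.0, 11.8 and 35.5 CPM in monocytes and at 29.6, 24.3, 12.7 and 59.5 CPM in macrophages and was not called. Glycolysis and hypoxia genes had 28 of 29 positive changes and a median of 0.53, with Anxa2, a calcium-dependent membrane-binding protein, as the 1 called member (2.27-fold higher, adjusted p = 0.0235). Without the monocytes of mouse 24 the adjusted p was 0.701 for Cdkn1a and 0.329 for Anxa2, and with 1 sample left out Cdkn1a was called only without the monocytes of mouse 26 and Anxa2 only without those or the macrophages of mouse 24. Of 17 iron and heme genes 0 were called (1 at an unadjusted p under 0.05, 1 by DESeq2).

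Scaling to spike-in RNA moved the median change of all genes from -0.03 to -0.53, and directions given here are relative to the median gene. Under that scaling all 87 higher genes kept a positive change and all 9 lower genes a negative one, and the classical monocyte and interferon-stimulated lists kept medians of 0.96 and 0.63. The glycolysis list turned to -0.03 and the CC chemokine list to -0.06.

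Transcripts of B lineage and plasma cells also moved with the group. The summed level of 11 B and plasma cell markers was 2673, 4801 and 2584 CPM in monocytes of mice 22, 24 and 26 and 1043, 483, 1663 and 339 CPM in the macrophages, without overlap, and all 10 tested members had positive changes. Igkc, the kappa light chain constant region, was counted at 1300, 1545 and 1245 CPM in monocytes and at 396, 103, 458 and 197 CPM in macrophages (log2 fold change 2.37, adjusted p = 0.0235). Igj, the joining chain of secreted IgA and IgM, was counted at 131, 508 and 234 CPM in monocytes and at 34.1, 19.3, 83.7 and 8.005 CPM in macrophages (log2 fold change 3.18, adjusted p = 0.0235). Both stayed called only without the monocytes of mouse 22 (adjusted p up to 0.202 and 0.157, without the monocytes of mouse 26). Ms4a1 (CD20), a B cell surface protein, overlapped between the groups, at 16.6, 26.8 and 5.16 CPM in monocytes and at 3.78, 17.2, 31.3 and 2.06 CPM in macrophages.

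Variable segments of immunoglobulin had the largest fitted changes of the named genes. Igkv6-15 was counted at 87.3, 192 and 83.9 CPM in monocytes and at 65.6, 0.802, 3.43 and 0.686 CPM in macrophages (adjusted p = 0.0152). Ighv1-39 was counted at 11.5, 11.8 and 58.7 CPM in monocytes and only in mouse 23, at 0.802 CPM, in macrophages (adjusted p = 0.0295), and no fold is given against samples at 0. Segments of this family are close in sequence, so reads can be split among them, and with 1 sample left out Igkv6-15 was called only without either sample of mouse 22 and Ighv1-39 only without the monocytes of mouse 24 (adjusted p up to 0.169 and 0.356). Microglia markers summed to between 2396 and 3935 CPM in monocytes and between 3240 and 6394 CPM in macrophages. Within the mice the microglia sum was lower in monocytes each time, at 2396 against 3546 CPM in mouse 22, 3935 against 6394 CPM in mouse 24 and 2597 against 3240 CPM in mouse 26, and 10 of its 12 members had negative fitted changes with a median of -0.49, so it moved with the group and its part in other differences was not tested. T and NK cell markers summed to between 1090 and 2478 and between 1080 and 3231 CPM, overlapping. Of these lists 0 genes were called (3 of 12 microglia and 0 of 14 T and NK cell markers at an unadjusted p under 0.05, 1 and 0 by DESeq2). Dendritic cell markers summed lower in monocytes within mice 22, 24 and 26, with 11 of 13 members negative and a median of -0.24. Endothelial, erythroid and oligodendrocyte sums were higher in monocytes within these mice, without a call (medians 1.28, 1.19 and 0.36). The endothelial list includes Ly6c1. Astrocyte and neuron sums had no such order. The part of these transcripts in other differences was not tested.

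The same contrast was available in GFPpos cells of these mice, in other libraries. Spike-in RNA took 3.59%, 5.16% and 0.612% of counts in the GFPpos monocytes of mice 22, 24 and 26. In the GFPpos macrophages it took 0.400% to 1.02%. Detected genes in those monocytes numbered 14739, 11708 and 14909, and the part of library quality in the GFPpos results was not tested. These libraries entered the same fit and share its estimates of spread and of the mouse terms, so the comparisons are not independent. There 25 of 11566 genes (0.216%) were called, 24 of them higher in monocytes. The lists had 20 genes in common, 20.8% of the genes called in GFPneg cells and 80.0% of those called in GFPpos cells, including Ly6c2, Plac8, Hp, Chil3, Cd177, Clec4e, S100a4, S100a6, Ms4a4c and Ifitm6. Of the 87 genes higher in GFPneg monocytes, 84 were also higher by the fit in GFPpos monocytes, 65 at an unadjusted p under 0.05. Over all 11566 genes tested, 6025 (52.1%) were higher there, 666 at an unadjusted p under 0.05. The median change of the 87 was 0.87 there against 1.62 in GFPneg cells, where they had been selected for being large, and 83 of the 87 were larger in GFPneg cells. Of the 9 lower genes 7 were lower in GFPpos monocytes too, where 52.1% of all genes tested were higher.

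Ly6c2 changed by 3.73 on the log2 scale in GFPpos cells (adjusted p = 5.74e-05) and Plac8 by 2.85 (adjusted p = 5.5e-07). For interferon-stimulated genes, 0 of 49 were called in GFPpos cells (21 at an unadjusted p under 0.05, 4 by DESeq2), and the median was 0.68 against 1.17. Irf7 had a log2 fold change of 0.85 (adjusted p = 0.0972) and Isg15 of 1.22 (adjusted p = 0.0935) there. F13a1 had a log2 fold change of -0.17 in GFPpos cells against 2.53 in GFPneg cells. The difference between the contrasts was tested for every gene and 0 genes were called (422 at an unadjusted p under 0.05, 3 by DESeq2), so neither the interferon genes nor F13a1 was shown to differ between cells with and without GFP.

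**Figure D4:**
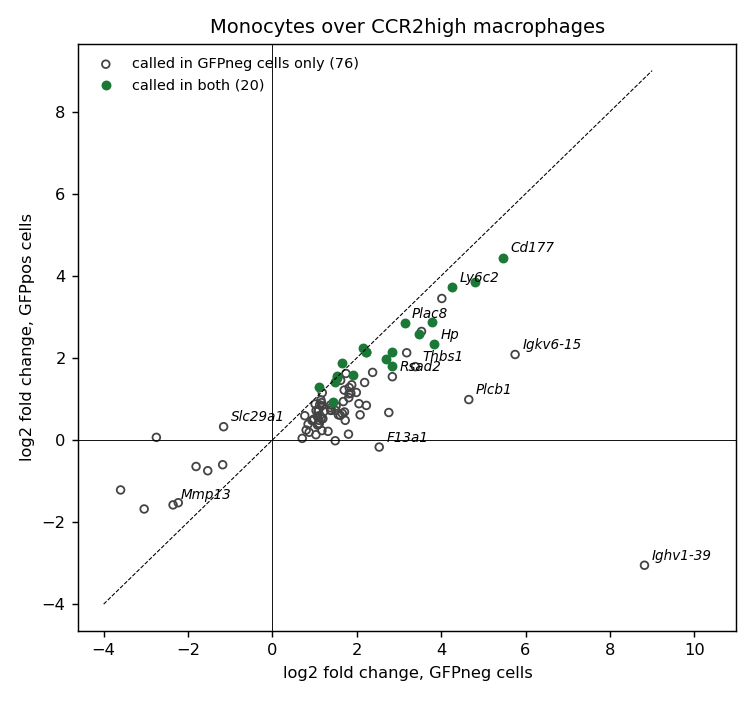
Log2 fold change of monocytes over CCR2high macrophages in GFPpos cells (y axis) against GFPneg cells (x axis) for the 96 genes called in GFPneg cells, with the 20 genes called in both filled and the line of equal change dashed. Most points lie below the line on the right, as 83 of the 87 higher genes changed more in GFPneg cells.

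Levels in the neighbouring populations of the same mice are given as a description. Of the 15 called classical monocyte genes, 9 had a higher mean in Ly6Chigh blood monocytes (n = 3) than in glioma monocytes, and all 15 had a lower mean in GFPneg CCR2low macrophages (n = 4) than in glioma monocytes. These genes were called for being high in the same glioma monocyte samples, so comparisons with those samples are partly set by that selection. No count over all genes is given beside them. Hp averaged 1816 ± 724 CPM (SD) in blood, 464 ± 84.9 in glioma monocytes, 38.7 ± 29.3 in CCR2high and 23.7 ± 12.1 in CCR2low macrophages, with the macrophage classes within their spread. Ly6c2 did not follow this order, with 1176 ± 184 CPM in blood, 3372 ± 466 in glioma monocytes, 197 ± 34.2 in CCR2high and 125 ± 38.1 in CCR2low macrophages.

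The 13 called interferon-stimulated genes had a different order. All 13 had a lower mean in Ly6Chigh blood monocytes than in glioma monocytes, 10 were lower in blood than in CCR2high macrophages as well, and 12 were lower in CCR2low than in CCR2high macrophages. The 13 were also selected as high in these glioma monocyte samples, which partly sets the comparison of blood with glioma monocytes. Isg15 averaged 56.0 ± 8.08 CPM (SD, n = 3) in blood, 937 ± 361 in glioma monocytes (n = 3), 299.7 ± 120.4 in CCR2high (n = 4) and 227 ± 90.3 in CCR2low macrophages (n = 4). Its level was thus highest in glioma monocytes of the 4 populations, and the difference between the macrophage classes lay within their spread. Ccl2 was nearly absent from blood at 4.12 ± 3.31 CPM and averaged 669 ± 249.6 in glioma monocytes, 218 ± 64.5 in CCR2high and 230.5 ± 48.3 in CCR2low macrophages. Mmp13 averaged 0.279 ± 0.483 CPM in blood, 54.8 ± 30.4 in glioma monocytes, 238 ± 74.0 in CCR2high and 239 ± 161 in CCR2low macrophages.

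**Figure D5:**
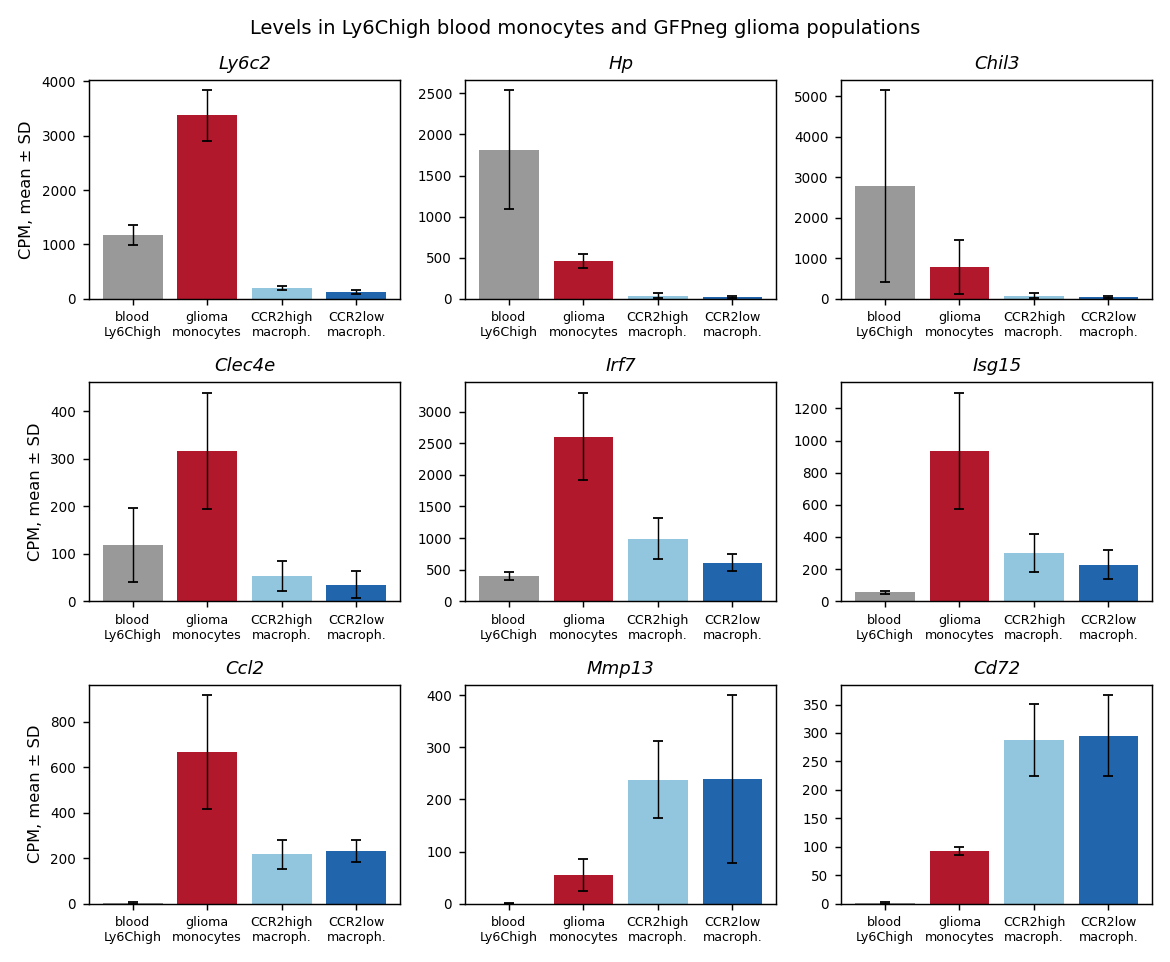
Mean normalized read count (CPM) ± SD of 9 genes in Ly6Chigh blood monocytes (n = 3), GFPneg glioma monocytes (n = 3), GFPneg CCR2high macrophages (n = 4) and GFPneg CCR2low macrophages (n = 4). Hp and Chil3 are highest in blood, Ly6c2, Clec4e, Irf7, Isg15 and Ccl2 are highest in glioma monocytes, and Mmp13 and Cd72 are highest in the macrophages.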

How the data were processed

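Blood and brain myeloid populations of 4 mice were profiled by RNA-seq. The authors aligned reads to mouse (GRCm38.p3), with Picard 1.8.4 and R 3.2.3 among the tools in their processing notes, and deposited raw read counts per gene from htseq-count, with repeat libraries of some samples. Strand handling is not given in the sources used here, so antisense and overlapping genes cannot be told apart. Every sample column was read, and 0 columns were left aside before the quality rule below. Reads assigned to no feature (7.08% to 10.8% of counts in the 7 libraries) or to several (1.61% to 1.90%) and 92 spike-in RNAs entered neither library sizes nor tests. A library had to hold 5 or more reads in at least 6000 genes (1 library did not), and the passing repeat libraries of a sample were summed, leaving 28 replicates of 8 populations.

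Genes were filtered with filterByExpr and fitted with edgeR 4.0.16 in R 4.3.3 (quasi-likelihood, robust, TMM) on all 28 replicates with population and mouse as terms, so that the comparisons share an estimate of the spread, with Benjamini-Hochberg adjustment over the 11566 genes tested. The SE is the absolute log2 fold change divided by the square root of F. CPM are TMM-normalized. Replicates are separate animals. The same mice gave both populations, and mouse was therefore kept as a block. Deviations of same-mouse samples from the population means correlated at 0.108, 0.317 and 0.534 in mice 22, 24 and 26. Different-mouse pairs ranged from -0.418 to 0.119, so mouse 22 showed no closer pairing. Deviations from a shared mean push different-mouse values down by construction. All replicate pairs differed beyond sampling noise. Counting error alone limits low values, and a count of 0 allows up to 3 counts.

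The genes named are the study's plotted markers; per direction, of the called genes whose replicates did not overlap and averaged 10 CPM or more, the 10 with the largest change (6 qualified as lower); up to 4 called members per direction of each pathway list, or the 2 most abundant where none was called; and called cell type markers. The members and lists were chosen with earlier results of these data known. Genes named beyond this rule were chosen after their values were seen. Some genes that the rule selects are not reported here. Of the list genes 2 had no match in the table. Positions are from GENCODE on GRCm38.p6, matched by symbol for 96.1% of genes tested. DESeq2 1.42.0, other scalings and filters, other sets of samples and omission of samples were tried, and the test was checked on simulated counts.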

Additional observations from a re-analysis of the deposited data

Results flagged for a closer look

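Among the 4 CCR2high macrophage replicates, the levels of 66 named genes were checked for a sample far from the others, and 5 genes had one. Chance alone gives about 1 in 20 such groups. Thbs1 was at 955.1 CPM in mouse 26 against at most 55.5 CPM in the others, and the monocytes of mouse 26 also held the most. Mrc1, the mannose receptor, was at 318.1 CPM in mouse 26 against 49.8 to 76.0 CPM. Mgl2 was at 407.9 CPM in mouse 24 against 111 to 153 CPM. Igkv6-15 was at 65.59 CPM in mouse 22 against 0.686 to 3.43 CPM, and Ighv1-39 at 0.8021 CPM in mouse 23 and 0 in the others. With the others at 0, any value above 0 in a single sample is flagged. The Ighv1-39 flag therefore carries no information and does not count against the chance rate.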

How the results depend on the processing

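For the GFPneg comparison, 96 genes were called. The paired fit with mouse as a replicate block was used, and without the replicate block 21 genes were called (21 higher, 0 lower), 2 in GFPpos cells (2 higher, 0 lower). With the block, fitting brain populations only gave 333 (239 higher, 94 lower) and 153 in GFPpos cells (105 and 48), and fitting the compared populations only gave 319 (248 and 71) and 0. DESeq2 gave 205 (156 and 49, 76.1% higher against 90.6%), 125 in GFPpos cells (84 and 41) and 3 for the difference. Spike-in scaling gave 0 in each, with 150 and 3834 genes at an unadjusted p under 0.05. Without a filter, or with at least 10 counts in every library, 5 lower genes were called, and with the first library of each sample 4 (GFPpos: 12 in all, 11 higher). With DESeq2 size factors, no filter or the 10-count filter, 2 genes were lower in GFPpos cells.

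Leaving out 1 sample gave, with each mouse left out of all populations (added after seeing the data), 16 to 123 genes in GFPneg cells (16 to 102 higher, 0 to 21 lower), 3 to 64 in GFPpos cells (3 to 46 and 0 to 18) and 0 for the difference. Of the 96 genes 30 were called in every fit without 1 of the 7 samples. Samples of mouse 24 mattered most: 35 genes were called without its monocytes and 16 without the mouse. No called gene among those named reversed its direction. The cause of these shifts was not tested. With 3 monocyte samples of 1683203 to 2154652 counted reads, genes of a few CPM could not be resolved, and a gene that was not called is not shown to be equal.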

Other observations

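Several called genes lay outside the lists, 46 of the 87 higher ones, and are named here after their values were seen. Of 8 tested genes of the Ly6 family on chromosome 15, 3 were called higher in monocytes (Ly6c2, Ly6i and Ly6d), and 7 had positive fitted changes. Ly6a, Ly6c1, Ly6e, Ly6g and Ly6k were not called. Ly6i (74979534 to 74983430) was counted at 2221, 1855 and 606 CPM in monocytes of mice 22, 24 and 26 and at 912, 555, 597 and 195 CPM in macrophages of mice 22, 23, 24 and 26 (log2 fold change 1.53, SE 0.201). Ly6d (74762056 to 74763620) had a log2 fold change of 2.23 (SE 0.337). I830127L07Rik, a transcribed pseudogene in the same cluster (75131377 to 75135128), had 4.80 (SE 0.637). Members of this cluster resemble each other, so reads may be shared among them.

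Other called genes on no list are given singly, without a count of related genes that were not called. Samhd1, a dNTP hydrolase that restricts viruses, was counted at 1291, 1807 and 863 CPM in monocytes and at 541, 486, 512 and 428 CPM in macrophages (log2 fold change 1.39, SE 0.171). Trex1, the cytosolic DNA exonuclease, had a log2 fold change of 1.07 (SE 0.221), and Sp100 and Daxx, which reside in PML nuclear bodies, had 1.20 (SE 0.183) and 1.66 (SE 0.335). The peroxide-reducing enzymes Prdx6 and Prdx5 had 1.43 (SE 0.170) and 0.85 (SE 0.181). With 1 sample left out, Trex1, Daxx and Prdx5 were each lost in at least 3 fits, all of them without the monocytes of mouse 24 (adjusted p = 0.192, 0.0966 and 0.315). All of these genes had positive changes in GFPpos cells, from 0.39 for Prdx5 to 3.85 for I830127L07Rik.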
